A study of Homo sapiens with 6 samples.

Results

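In control cells, 1948 of 72272 merged TLE3 regions carried a peak of both siNS libraries, carried none of either siFOXA1 library and lay within 1 kb of an end of at least 2 different protein-coding genes. They are called paired-end regions here. The groups were MDA-MB-453 cells, a human breast cancer line, given siFOXA1 to silence FOXA1 transiently, and the same line given siNS, the arm without silencing, each with 2 libraries that the titles call biological replicates. TLE3 was immunoprecipitated after cross-linking with an added reagent and then formaldehyde. The lists hold peak positions and scores and no expression values, so neither the loss of FOXA1 nor the identity of the line could be checked from them. The regions were chosen by measured values, the presence or absence of a peak in all 4 lists, so their absence from siFOXA1 is a description and was not tested.

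TLE3 is a corepressor of the Groucho family. It lacks a DNA-binding domain and relies on partner factors such as TCF/LEF, RUNX, HES and forkhead proteins to reach chromatin, where it recruits histone deacetylases. FOXA1 belongs to the forkhead family and is a pioneer factor that opens chromatin, mainly at enhancers, in luminal breast epithelium. Where starts of neighbouring genes on opposite strands lie close together, the stretch between them serves as a bidirectional promoter; such promoters are usually rich in CpG and GC and poor in TATA boxes, and are common among housekeeping and DNA repair genes.

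Promoter windows of 4 paired-end regions with divergent starts are shown first because they hold some of the short motifs counted further on. The windows run from 250 bases before to 50 bases after a gene's start, which is base 251, on the gene's own strand, and come from RefSeq on GRCh38.p14. Capitals mark the letters GGGCGG (the GC box of SP and KLF factors), CCGGAAG (ETS), CCAAT (NFY) and CACGTG (E-box), or their complement on the other strand. Searches for GCATGCGC (NRF1), AAGATGGC (YY1), TGACGTCA (CRE) and CTACAATTC (ZNF143 and THAP11) put no further capitals into these windows. NPAT, an activator of histone genes, and ATM, the kinase of the DNA damage response, are both shown. The BRCA2 window stands for its pair with ZAR1L, HSPE1 for its pair with HSPD1 and AFMID for its pair with TK1, since the partner's window repeats many of the same bases on the other strand.
NPAT, chr11:108222589-108222888, minus strand: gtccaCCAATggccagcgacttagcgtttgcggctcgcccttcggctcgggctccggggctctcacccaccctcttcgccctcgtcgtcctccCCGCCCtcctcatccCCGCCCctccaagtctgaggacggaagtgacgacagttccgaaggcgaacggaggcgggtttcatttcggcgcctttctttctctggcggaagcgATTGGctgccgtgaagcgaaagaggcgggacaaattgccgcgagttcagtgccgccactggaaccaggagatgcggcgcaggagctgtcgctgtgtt
ATM, chr11:108222817-108223116, plus strand: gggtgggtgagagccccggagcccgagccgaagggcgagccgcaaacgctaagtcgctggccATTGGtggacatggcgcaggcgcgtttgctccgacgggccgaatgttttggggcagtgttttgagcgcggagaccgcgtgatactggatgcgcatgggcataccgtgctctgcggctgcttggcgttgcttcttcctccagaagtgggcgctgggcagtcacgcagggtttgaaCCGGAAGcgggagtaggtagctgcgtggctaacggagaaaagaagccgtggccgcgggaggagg
BRCA2, chr13:32315258-32315557, plus strand: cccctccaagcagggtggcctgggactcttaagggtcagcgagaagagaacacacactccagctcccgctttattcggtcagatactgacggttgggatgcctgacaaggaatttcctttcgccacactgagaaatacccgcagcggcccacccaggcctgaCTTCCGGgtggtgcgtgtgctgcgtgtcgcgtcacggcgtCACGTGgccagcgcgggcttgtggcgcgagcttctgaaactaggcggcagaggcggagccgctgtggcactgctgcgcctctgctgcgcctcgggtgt
HSPE1, chr2:197500129-197500428, plus strand: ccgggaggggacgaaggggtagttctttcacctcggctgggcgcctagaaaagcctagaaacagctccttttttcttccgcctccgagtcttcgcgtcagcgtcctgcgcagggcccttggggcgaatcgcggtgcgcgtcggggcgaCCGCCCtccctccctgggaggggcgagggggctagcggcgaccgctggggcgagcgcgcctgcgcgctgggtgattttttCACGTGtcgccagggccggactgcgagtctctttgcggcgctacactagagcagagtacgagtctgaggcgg
AFMID, chr17:78187112-78187411, plus strand: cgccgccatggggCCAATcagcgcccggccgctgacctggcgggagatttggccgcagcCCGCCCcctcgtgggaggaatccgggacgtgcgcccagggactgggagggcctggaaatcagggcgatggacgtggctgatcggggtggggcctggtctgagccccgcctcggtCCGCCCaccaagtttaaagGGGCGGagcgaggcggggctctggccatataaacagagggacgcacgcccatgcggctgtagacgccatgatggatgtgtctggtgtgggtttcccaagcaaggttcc
The NPAT window held a CCAAT match on each strand and 2 GC boxes, and the ATM window held 1 CCAAT match and 1 ETS match. The BRCA2 window held 1 ETS match and 1 E-box. The HSPE1 window held 1 GC box and 1 E-box, and the AFMID window held 1 CCAAT match and 3 GC boxes. Other letters counted further on are not marked. Among them are TATAAA, the TATA box, in the AFMID window and CGCGTG, the complement of CACGCG, in the ATM window. A match is a description of letters and does not show that a factor bound there.

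The siFOXA1 lists held 12249 and 13754 peaks, against 45105 and 46586 peaks in the siNS lists, on chromosomes 1 to 22 and X. The lists give no reads, so the depth of each library is unknown. A shorter list can come from depth, immunoprecipitation yield or binding, and these cannot be told apart here. Of 24967 regions shared by the 2 siNS lists, 20732 (83%) had no siFOXA1 peak, which is the background for every count of control-only regions below. Each score is the authors' deposited value, its definition is not given in the sources used here, and only its order inside 1 list was used.

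Paired gene ends took up a smaller share of the siFOXA1 lists than of the siNS lists. In siFOXA1 1, 59 peaks (0.482%) and in siFOXA1 2, 57 peaks (0.414%) lay within 1 kb of the ends of 2 or more protein-coding genes, against 2628 peaks (5.83%) in siNS 1 and 2429 peaks (5.21%) in siNS 2. The libraries of the groups did not overlap, and with all peaks the replicates of a group differed far less than the groups did. The mean share was 0.448% ± 0.0476 in siFOXA1 and 5.52% ± 0.433 in siNS (SD, n = 2 each), a difference of -5.07 percentage points with a two-sided exact permutation p of 0.333, the smallest that 2 against 2 libraries allow. The siNS share was 12.3-fold the siFOXA1 share. These are the lists from which the regions were chosen, so the difference is no independent support for them. At the ends of a single gene, the mean share was 3.95% ± 0.192 of siFOXA1 peaks and 24.7% ± 1.76 of siNS peaks, so the siNS share was 6.25-fold the siFOXA1 share. For each peak at a single gene end there were 0.118 and 0.109 peaks at paired ends in siFOXA1, against 0.225 and 0.223 in siNS. With each list shortened to its 12249 highest scores, the shares at paired ends were 0.482% and 0.425% in siFOXA1. They were 9.56% in siNS 1 and 5.29% in siNS 2. The difference in means was then -6.97 points, but the siNS replicates lay much farther apart than with all peaks. What the length of a list contributes was not tested.

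The paired-end regions were spread over all 23 chromosomes used. Chromosome 16 had 15.8 of them per 100 protein-coding genes and chromosome 17 had 13.2, while chromosome 4 had 5.84 and X had 4.48. Most were simple in structure. Ends of 2 genes lay within 1 kb of 1840 regions, ends of 3 genes of 104 and ends of 4 genes of 4. A single siNS 1 peak made up the control signal in 1823 regions and a single siNS 2 peak in 1616. The regions measured 256 to 6238 bp, with a median of 1091 bp and quartiles of 766.5 and 1504 bp. In total 3540 of 19974 protein-coding genes, or 17.7%, had an end within 1 kb of a paired-end region.

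Divergent starts were the commonest arrangement, but not the only one. The strands needed to class a region were known for 1454. Of these, 972 (66.9%) lay at divergent starts, that is at starts on opposite strands, and in 254 of the 972 the genes' 5′ ends overlapped. A further 347 lay at the start of one gene and the 3′ end of another, 82 at parallel starts and 53 at 3′ ends alone. The strand of at least 1 gene was not in the table for the other 494. The name bidirectional promoter can thus be given only to those 972, and the other classed regions lay at starts on 1 strand or beside the 3′ end of a gene. For arrangement, spacing and coverage, a start is the outer 5′ end of the annotated gene span. It can differ from the start in a promoter window. By spans the gap between ZAR1L and BRCA2 is -286 bp, an overlap. In its window, however, BRCA2 starts at 32315508, past the ZAR1L start at 32315363. The 254 overlaps and the coverage of starts rest on the spans.

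Occupancy also differed by arrangement when all annotated pairs of gene ends within 1 kb were taken, whether or not they had a region. A siFOXA1 peak lay within 1 kb of both ends at 12 (1.09%) of 1097 divergent pairs in siFOXA1 1 and at 13 (1.19%) in siFOXA1 2, against 980 (89.3%) in siNS 1 and 925 (84.3%) in siNS 2. Parallel starts had a siFOXA1 peak at 1.99% and 0.662% of 151 pairs, against a siNS peak at 75.5% and 70.2%. Pairs of a start and a 3′ end had 2.16% and 1.98% in siFOXA1, against 64.6% and 60.4% in siNS, among 556 pairs. Pairs of 3′ ends alone had 0.678% and 1.26% in siFOXA1, against 13.8% and 9.68% in siNS, among 1033 pairs. In siNS the share of occupied pairs was thus lowest where the pair held no start, and in siFOXA1 no arrangement reached 3% in either library. A paired-end region lay at 79.9% of divergent pairs (exact 95% binomial interval 77.4 to 82.2%), 64.9% of parallel pairs, 53.6% of mixed pairs and 7.07% of pairs of 3′ ends (5.58 to 8.80%). All such intervals cover counting error over regions, pairs or genes, not the spread between libraries.

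**Figure D1:**
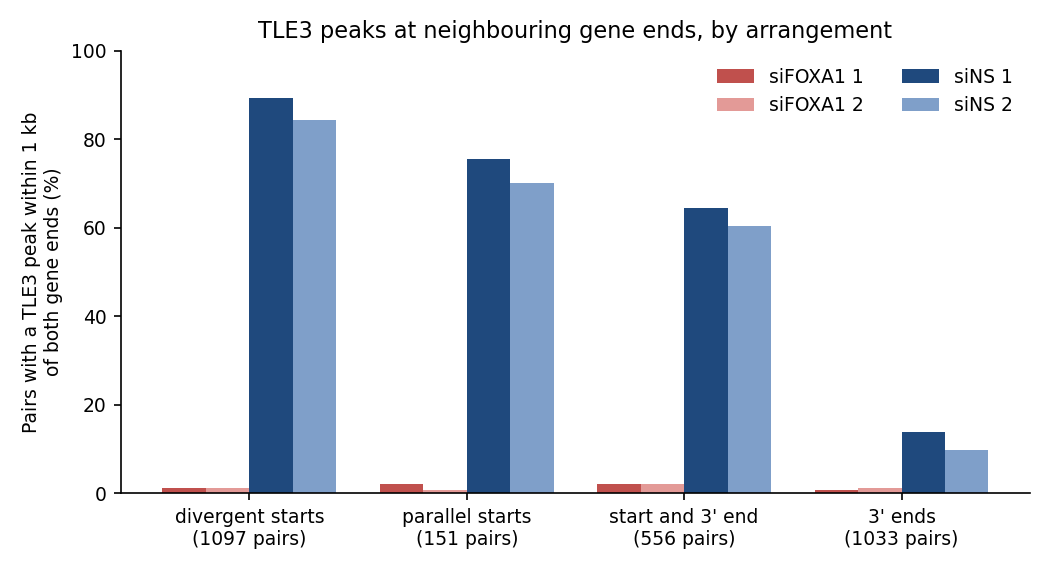
Share of annotated pairs of protein-coding gene ends within 1 kb (y axis, percent) that had a TLE3 peak within 1 kb of both ends, by arrangement of the pair (x axis, number of pairs in brackets). Each bar is 1 library; siNS bars stand at 84.3 to 89.3% for divergent starts and at 9.68 to 13.8% for 3′ ends, and every siFOXA1 bar is at or below 2.16%.

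Among divergent pairs the spacing of the starts made little difference over most of its range. A paired-end region lay at 77.9% of 208 pairs with starts 0 to 100 bp apart, at 80.2% of 257 pairs 100 to 200 bp apart and at 86.6% of 119 pairs 300 to 500 bp apart. Where the genes' 5′ ends overlapped by up to 200 bp the share was 57.1% of 49 pairs, with an interval of 42.2 to 71.2%. Where they overlapped by 500 to 1000 bp it was 80.8% of 104 pairs.

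The share of siNS regions without a siFOXA1 peak was counted for each arrangement. At paired gene ends 1948 of 2063 siNS regions (94.4%, interval 93.3 to 95.4%) had no siFOXA1 peak, beside the 83% of all siNS regions. With each list shortened to its 12249 highest scores, the paired-end regions numbered 524 of 623 siNS regions there (84.1%), beside 67.7% of all siNS regions, 84.8% at single ends and 53.7% away from gene ends. With all peaks, a siFOXA1 1 peak overlapped 84 of the 2063 (4.07%) and a siFOXA1 2 peak 77 (3.73%). Divergent starts stood at 97.2% (972 of 1000, 96.0 to 98.1%) and parallel starts at 96.5% (82 of 85). A start beside a 3′ end stood at 90.8% (347 of 382) and 3′ ends alone at 82.8% (53 of 64, 71.3 to 91.1%), close to the background. Single gene ends showed nearly the same share as paired ends, at 93.6% (8038 of 8592). Split by strand they gave 94.7% for a single start and 79.5% for a single 3′ end, so starts stood above 3′ ends at single as at paired ends. Regions inside genes and between genes stood at 76.6% and 73.1%. Among siNS regions of the highest of 3 equal score bins, 84.4% at paired ends and 84.9% at single ends had no siFOXA1 peak, against 54.6% inside genes and 49.8% between genes. The choice of regions used this contrast, so these shares are given without a test.

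The 115 siNS regions at paired ends that did overlap a siFOXA1 peak ranked higher and were wider in siNS than the regions without one. Their median score percentile, the rank of a region's best peak within its list, was 96.6 in siNS 1 and 94.4 in siNS 2, against 75.1 and 60.0 for the 1948 regions without a siFOXA1 peak. Their siNS peaks had median widths of 1672 and 1299 bp, against 969.5 and 732 bp. Of the 115, 28 lay at divergent starts.

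Peaks at the paired-end regions were wider than at control-only regions away from gene ends and were ranked higher in siNS 1. Median widths were 969.5 bp in siNS 1 and 732 bp in siNS 2 at paired ends, 920 and 722 bp at single ends, 525 and 518 bp inside genes and 486 and 496 bp between genes. Median score percentiles were 75.1 and 60.0 at paired ends, against 76.2 and 61.9 at single ends, 63.8 and 58.1 inside genes and 61.6 and 56.9 between genes. Paired and single ends thus lay close together in both libraries, whereas siNS 2 separated gene ends from other places by only a few percentiles. At 86.2% of the paired-end regions the percentile was higher in siNS 1 than in siNS 2, compared with 85.3% at single ends, 62.7% inside genes and 61.2% between genes. The siNS scores had a Spearman correlation of 0.752 across the 1948 regions, which share their 2 libraries. Within the set, regions at 3′ ends alone had the narrowest peaks in both libraries, with medians of 586 and 643 bp. The widest arrangement differed between the libraries: it was a start beside a 3′ end in siNS 1 (1055 bp, 747 bp in siNS 2) and parallel starts in siNS 2 (855.5 bp in siNS 1, 789 bp in siNS 2).

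**Figure D2:**
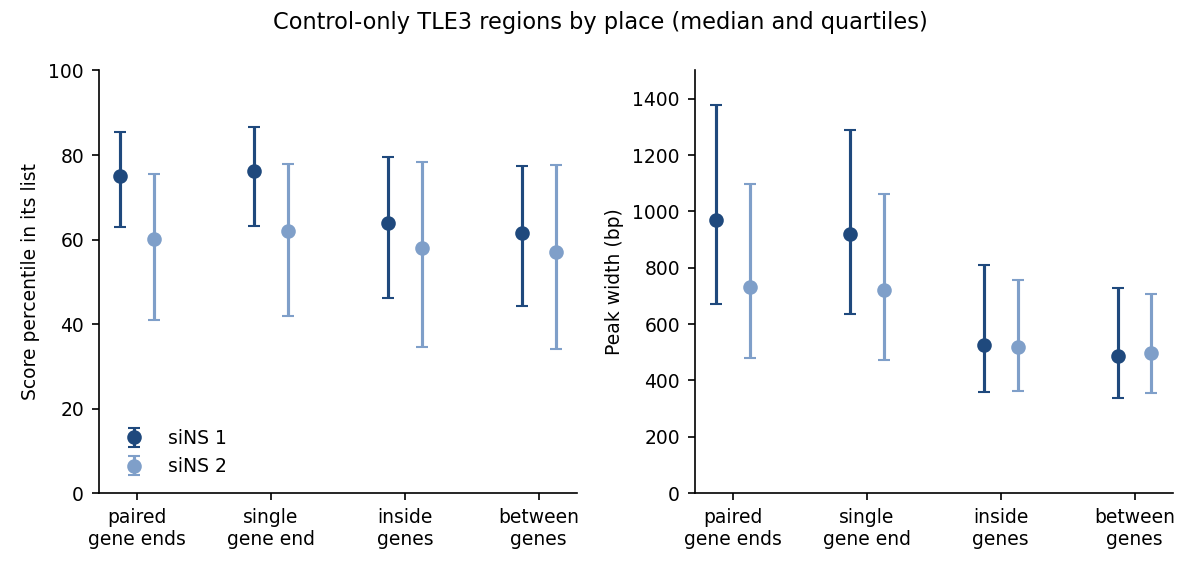
Median and quartiles over control-only regions of the score percentile within each siNS list (left panel, y axis from 0 to 100) and of the width of the best siNS peak in bp (right panel), at paired gene ends, single gene ends, inside genes and between genes. Dark points are siNS 1 and light points siNS 2; median widths at paired ends are 969.5 and 732 bp, against 486 and 496 bp between genes.

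At divergent pairs the best siNS peak covered both starts in most regions, but its centre mostly lay to one side of the starts. The starts of the 972 divergent regions lay a median of 232 bp from each other. This was 188.5 bp in the 718 regions with starts apart and 476.5 bp in the 254 with overlapping 5′ ends. The merged region covered both starts in 702 (72.2%), and the best single peak did so in 66.4% in siNS 1 and 52.7% in siNS 2. In the regions with starts apart, the peak centre fell between the starts in 26.5% in siNS 1 and 23.5% in siNS 2. With overlapping 5′ ends the centre fell between them more often, in 52.8% and 46.5%. The share over all 972 was 33.3% and 29.5%. Where several regions lay at the same pair, each was counted. Over all 972 the centre lay a median of 217.75 and 238 bp from the midpoint between the starts, on either side, and within 250 bp of it in 55.7% and 52.4%. At the 6129 control-only regions with a single start, the centre lay a median of 190 and 204 bp from the start, on either side, and within 250 bp in 60.9% and 57.5%. Those single-start peaks had their centre downstream of the start in 71.3% and 64.9%. For a divergent pair the downstream direction differs between its genes, so no such share was set beside it.

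**Figure D3:**
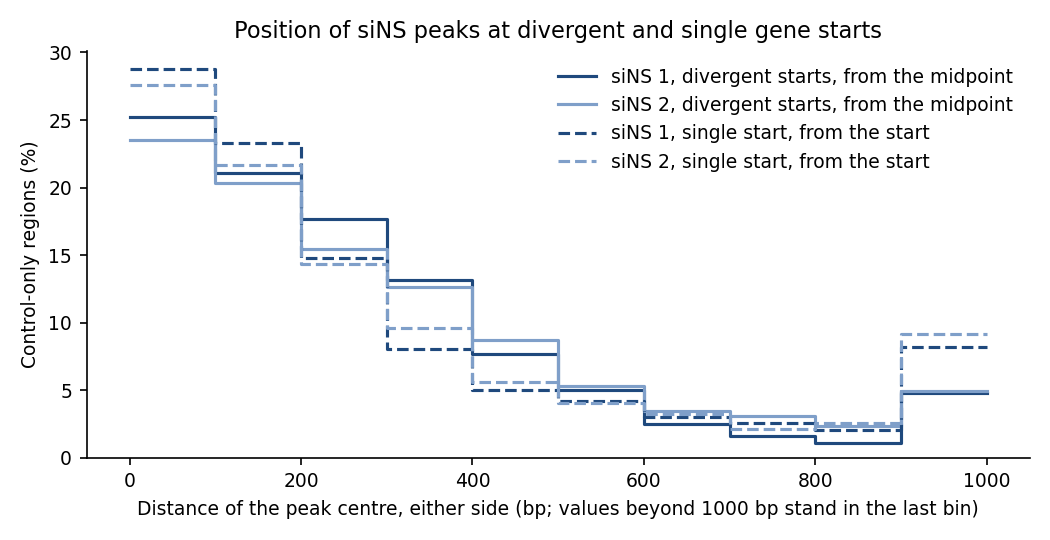
Distance of the centre of the best siNS peak, on either side (x axis, bp, bins of 100 bp with values beyond 1000 bp in the last bin), from the midpoint between divergent starts (solid lines, 972 regions) or from a single start (dashed lines, 6129 regions), against the share of those control-only regions (y axis, percent). Dark lines are siNS 1 and light lines siNS 2; the first bin holds 25.2% and 23.6% of divergent regions, against 28.7% and 27.6% of single-start regions.

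Individual pairs show the range of scores. At NPAT and ATM (chr11:108222381-108223307) no siFOXA1 peak was present, and the score was 23.6 in siNS 1 and 10.4 in siNS 2. The nearest siFOXA1 peak was 117651 bp away in siFOXA1 1 and 86241 bp away in siFOXA1 2. This region covered both starts, which lie 429 bp apart, and the ETS and CCAAT matches of the ATM window shown above. At BRCA2, which acts in homologous recombination, and ZAR1L (chr13:32315263-32316157) the scores were 25.2 in siNS 1 and 15.0 in siNS 2. HSPD1 and HSPE1, the mitochondrial chaperonin and its cofactor, had a stronger region (chr2:197499386-197500810) with 78.6 in siNS 1 and 54.6 in siNS 2, but there siFOXA1 peaks lay only 1417 bp (siFOXA1 1) and 1407 bp (siFOXA1 2) away. TK1, thymidine kinase, and AFMID, an enzyme of tryptophan breakdown, had 23.3 in siNS 1 and 16.2 in siNS 2 at chr17:78186362-78187444, with siFOXA1 peaks 349446 and 126655 bp away. By rank, the NPAT and ATM region stood at percentile 72.7 in siNS 1 and 44.6 in siNS 2. That of HSPD1 and HSPE1 stood at 94.2 and 90.4. All 4 regions had no overlapping siFOXA1 peak by the rule.

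Of 32 well-known neighbouring pairs listed for this work, 18 had a paired-end region touching both genes. Besides those above, these included SIRT3, a mitochondrial deacetylase, with PSMD13, a proteasome subunit (76.7 in siNS 1 and 38.5 in siNS 2). RANBP1, a regulator of nuclear transport, and TRMT2A had the highest siNS 1 score of the 18, with 104 in siNS 1 and 68.5 in siNS 2. MCM7, a subunit of the replicative helicase, and AP4M1 had 34.1 and 40.3. At the low end, the siNS 1 score was 6.02 at NDUFS3 and KBTBD4, 6.06 at SDHD and TIMM8B, and 7.65 at HARS1 and HARS2, the cytosolic and mitochondrial histidyl-tRNA synthetases; siNS 2 ranked these higher, with scores of 10.7, 15.9 and 13.0. NDUFS3 and KBTBD4 also had the nearest siFOXA1 peaks of the 18, at 675 bp (siFOXA1 1) and 676 bp (siFOXA1 2). Of the 14 pairs without such a region, 12 have their closest ends more than 1 kb apart in the table. COL4A1 and COL4A2, which encode basement membrane collagen, have ends 127 bp apart and had no control-only region at either gene.

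The 10 paired-end regions with the highest mean score percentile were not those of the best-known pairs. PRDX2, a peroxiredoxin, and THSD8 led (chr19:12800853-12802945), scoring 202 in siNS 1 and 200.0 in siNS 2, and the nearest siFOXA1 peaks lay 10877 and 13995 bp away. CHTOP, an mRNA export factor, and S100A13 followed with 207 and 175. GRIN1, an NMDA receptor subunit, lay with LRRC26 and TMEM210 at a region of 210 in siNS 1 and 142 in siNS 2. This region was classed as parallel starts, which does not require that each gene named has its start there. The highest siNS 1 score of all 1948 regions, 241, was at THAP12 and GVQW3, which had 130 in siNS 2, and the highest siNS 2 score, 225, was at PIGP and TTC3, which had 125 in siNS 1. The other 5 were ANKRD37 with LRP2BP, NT5C with ARMC7, TIGD1 with EIF4E2, LSM1 with BAG4 and CTDSP1 with SLC11A1, with siNS 1 scores of 140 to 188 and siNS 2 scores of 103 to 146. Each of the 10 stood above 100 in both siNS lists, compared with set medians of 25.9 and 15.7, and had no siFOXA1 peak across it.

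The 3 regions with the most gene ends each touched 4 genes. One lay at MMP24OS, MMP24, MMP24-AS1-EDEM2 and EIF6, where the score was 52.1 in siNS 1 and 29.2 in siNS 2. Another lay at NME3, MAPK8IP3, MRPS34 and EME2, with 37.0 and 23.0. The last lay at MKKS and SLX4IP with 2 further annotated genes, LOC128706665 and LOC128706666, whose spans share an end with MKKS, with 21.7 and 14.5. Such shared ends count separately in the table although they mark one place. With only genes whose spans do not overlap each other counted as different, 1454 of the 1948 regions remained. The widest region, 6238 bp, lay at FASN, fatty acid synthase, and CCDC57, scoring 90.6 in siNS 1 and 48.2 in siNS 2, with siFOXA1 peaks 1423 and 1273 bp away. CTDSP1 with SLC11A1 (6048 bp) and BMP4, a secreted growth factor, with LOC124903317 (5069 bp) came next. The BMP4 region was broken up, with 2 peaks of siNS 1 and 6 of siNS 2.

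At the 1 kb limit itself, the regions just inside were NPB with PCYT2, whose second gene end lay at 1000 bp and whose scores were 14.4 in siNS 1 and 8.23 in siNS 2, and AMPD2 with GNAT2, at 998 bp with 22.6 and 11.0. Just outside were ATXN7L2 with SYPL2, at 1001 bp with 42.3 and 41.6, and LEF1 with LOC124900752, at 1002 bp with 21.9 and 5.25.

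Housekeeping gene groups were at paired-end regions more often than protein-coding genes as a whole, of which 17.7% were. The share was 43.6% of 39 chaperone genes (17 genes), 39.4% of 66 DNA repair and Fanconi anaemia genes (26), 38.6% of 70 replication-dependent histone genes (27), 37.9% of 58 genes for RNA polymerase subunits and general factors (22), 36.4% of 77 mitochondrial ribosomal protein genes (28) and 36.0% of 50 DNA replication genes (18). Respiratory chain and import genes had 35.7% (30 of 84), aminoacyl-tRNA synthetases 35.1% (13 of 37), spliceosome genes 34.4% (21 of 61), cytosolic ribosomal protein genes 30.7% (23 of 75) and proteasome genes 26.7% (12 of 45). Of these 11 lists only the proteasome list had an exact binomial interval that reached the share of all genes, 14.6 to 41.9%. Genes of a list can share a region, as HSPD1 and HSPE1 did and as most of the counted histone genes did. The genes are thus not independent, and the intervals do not allow for this.

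The lists also differed in how often the annotation puts a neighbour close by. A protein-coding neighbour's end within 1 kb was present for 28.6% of all genes, but for 53.0% of the DNA repair list, 57.1% of the histone list and 56.9% of the RNA polymerase list. Among genes with such a neighbour, 56.2% overall were at a paired-end region, against 85.0% of the DNA replication list (17 of 20), 80.0% of chaperones (16 of 20), 74.1% of cytosolic ribosomal proteins (20 of 27), 68.6% of DNA repair (24 of 35) and 62.5% of histones (25 of 40). The other housekeeping lists stood at 61.9 to 70.6%, except the proteasome list, which was below the share of all genes at 52.6% (10 of 19). The count was 2 of 4 for the luminal list, 4 of 6 (66.7%) for the TLE-partner list and 52 of 94 (55.3%) for the zinc finger list. At single gene ends the order of the lists differed. A control-only single-end region, without a paired-end region, was at 7006 of 19974 protein-coding genes. It was at 21 of 34 luminal genes and 24 of 44 TLE-partner genes. Among the housekeeping lists it ran from 9 of 70 histone genes to 25 of 45 proteasome genes. The lists were chosen with earlier results of these data known, so the counts are a description.

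Within the lists, the strongest DNA repair regions were at ERCC1, TP53BP1 and RAD50. A listed gene had an end within 1 kb of its region, and that end need not be its start. ERCC1, a nucleotide excision repair endonuclease subunit, had 142 in siNS 1 and 74.5 in siNS 2. Its region, of divergent starts, also touched POLR1G and PPP1R13L. TP53BP1, which directs double-strand break repair, had 70.0 and 55.5, and RAD50 had 59.7 and 45.4. POLE, the leading-strand polymerase, had 80.9 and 55.0. CDT1, which licenses replication origins, had 47.6 and 32.2 at a region of 3′ ends alone. NDUFS1, a complex I subunit, shared a region with EEF1B2 (122 and 70.5), RPL4 one with ZWILCH (72.1 and 69.9) and POLR1D one with LNX2 (90.7 and 64.9). The histone genes H2AC25 and H2BC26 shared one at divergent starts (69.1 and 51.6). None of these regions had a siFOXA1 peak, by the rule.

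Genes of luminal identity and of TLE3's own pathway were at paired-end regions at shares whose intervals held the 17.7% of all genes. Of 34 luminal genes 5 (14.7%, 4.95 to 31.1%) were at a paired-end region, and 4 of the 34 had a protein-coding neighbour's end within 1 kb (a region can also touch ends that lie farther apart than that). They were KRT8 and KRT18, the paired simple-epithelial keratins, at one region (104 in siNS 1 and 79.3 in siNS 2), ERBB2, the HER2 receptor, with MIEN1 (73.8 and 60.7), ERBB3 with PA2G4 (53.0 and 49.5) and MUC1 with THBS3 (32.5 and 16.9). Of 44 genes for TLE-family corepressors and their partners 5 (11.4%, 3.79 to 24.6%) were, namely SIX5 (76.1 and 45.6), the deacetylases HDAC3 (24.8 and 21.8) and HDAC1 (13.8 and 13.1), LEF1, a Wnt effector that binds TLE proteins (23.1 and 10.1), and FOXA3 with SYMPK (8.47 and 7.14). The ZNF-named zinc finger genes stood at 12.2% (62 of 509). None of 392 olfactory receptor genes was at such a region, which allows a share of up to 0.937% by the exact interval, although 23 of them have a neighbour's end within 1 kb. Not all of the luminal and TLE-partner regions lay at the start of the named gene. That of ERBB2 lay at a gene's start beside another's 3′ end, and that of HDAC1 at 3′ ends alone. The MUC1 region also joined a start and a 3′ end, but there the start was MUC1's own and the 3′ end that of THBS3. A known start lay within 1 kb of a paired-end region for 3 luminal genes (8.82%) and 3 TLE-partner genes (6.82%). For all genes that share was 12.8%.

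**Figure D4:**
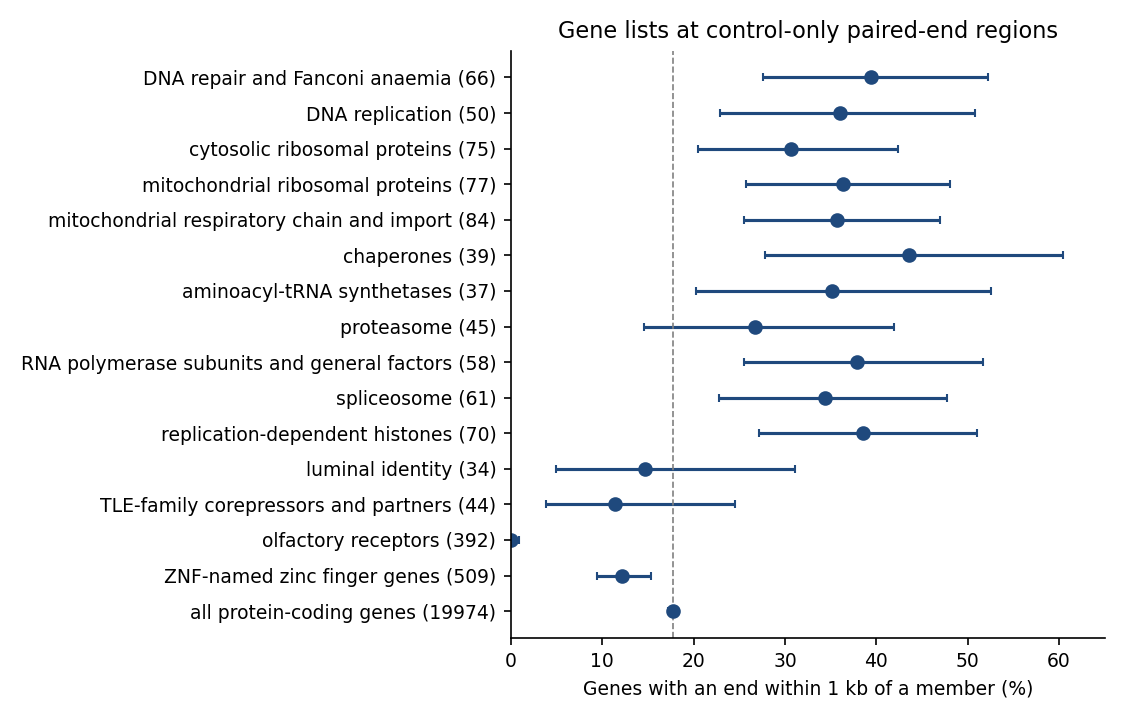
Share of the genes of each list with an end within 1 kb of a paired-end region (x axis, percent; number of genes in brackets), with exact 95% binomial intervals; the dashed line is the share of all protein-coding genes, 17.7%. The points of 11 housekeeping lists stand at 26.7 to 43.6%, and those of the luminal, TLE-partner, zinc finger and olfactory lists at 0 to 14.7%.

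Promoter windows at the paired-end regions were CpG-rich and differed from those at single gene ends in few motifs. A 300-base window was matched for 2564 genes with a start within 1 kb of a paired-end region. Their median GC content was 65.7% and their median CpG ratio, observed over expected, 0.86, against 67.0% and 0.85 for 5741 starts at single-end control-only regions. Over all 15813 starts the medians were 62.7% and 0.76, and over 5674 starts with no siNS peak within 1 kb they were 54.0% and 0.34. The SP and KLF box GGGCGG, on either strand, was in 72.7% of windows at paired ends, 74.99% at single ends, 58.3% of all windows and 34.3% of windows without a siNS peak.

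Of the 20 motifs searched, the ETS letters CCGGAAG differed most, in percentage points, between paired and single ends. They were in 25.7% of windows at paired ends (interval 24.0 to 27.4%), against 17.6% at single ends (16.6 to 18.6%), 14.1% of all windows and 4.67% of windows without a siNS peak. Windows at divergent regions had them in 26.6% of 1843, against 13.6% (9.09 to 19.3%) of 191 windows at divergent starts with no siNS peak within 1 kb. At starts near siNS gene-end regions that overlapped a siFOXA1 peak the share was 12.0% of 401. Smaller differences in the same order were found for the E-box CACGTG (12.3% at paired ends, 10.02% at single ends, 8.82% of all windows), for GCATGCGC of NRF1 (6.79%, 5.40% and 4.27%) and for AAGATGGC of YY1 (6.47%, 4.77% and 3.86%). Against the 191 windows at divergent starts with no siNS peak, divergent regions stood higher for the E-box (11.9% and 3.66%) and YY1 (7.11% and 3.66%, with overlapping intervals), but close for NRF1 (6.40% and 6.28%) and CCAAT (39.1% and 37.2%). CCAAT was in 38.4%, 35.3% and 36.4%. The 2 E2F motifs, TTTGGCGC (1.52%, 0.958% and 0.885%) and GGCGGGAA (5.77%, 5.50% and 4.24%), and GTTGCC of RFX factors (15.5%, 13.0% and 12.6%) also stood slightly higher at paired ends. The letters GGCGGGAA can share bases with the GC box. CTACAATTC of ZNF143 and THAP11 was in 0.702%, 0.523% and 0.430%. Lower at paired than at single ends were GCCNNNGGC of AP-2 (31.3%, 36.1% and 28.2%) and TGACGTCA of CRE (2.96%, 3.33% and 2.56%). The windows of a divergent pair share at least 1 base at 609 of 972 regions (62.7%), so the windows are not independent, and counting error alone is in the intervals.

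The TATA, GATA and TGTTTAC forkhead letters were less frequent at the paired-end regions than over all windows, but not set apart from divergent starts without a siNS peak. TATAAA was in 4.52% of their windows and in 5.10% at single ends, 9.75% of all windows and 17.4% of windows without a siNS peak. AGATAA of GATA factors was in 3.82%, 4.34%, 7.63% and 13.2%. The forkhead letters TGTTTAC were in 1.68% at paired ends (1.22 to 2.25%), 2.28% at single ends, 2.68% of all windows and 3.42% of windows without a siNS peak, and TGTTTGC was in 2.77% (2.17 to 3.48%), 2.33%, 3.17% and 4.18%. The 191 windows at divergent starts with no siNS peak had TATAAA in 5.24% (2.54 to 9.42%), AGATAA in 3.14% (1.16 to 6.71%), and TGTTTAC and TGTTTGC in 2.62% each (0.855 to 6.003%). Letters of factors that recruit TLE proteins differed little between paired and single ends. CTTTGAT of TCF and LEF was in 1.13% at paired ends, 1.06% at single ends and 1.96% of all windows. TGTGGTT of RUNX was in 2.89%, 2.58% and 3.61%, and CACGCG, a variant E-box of HES proteins, in 20.4%, 19.5% and 14.8%. TGANTCA of AP-1 was in 3.82%, 3.74% and 5.70%. Absence of these letters in a 300-base window says nothing of the factor.

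**Figure D5:**
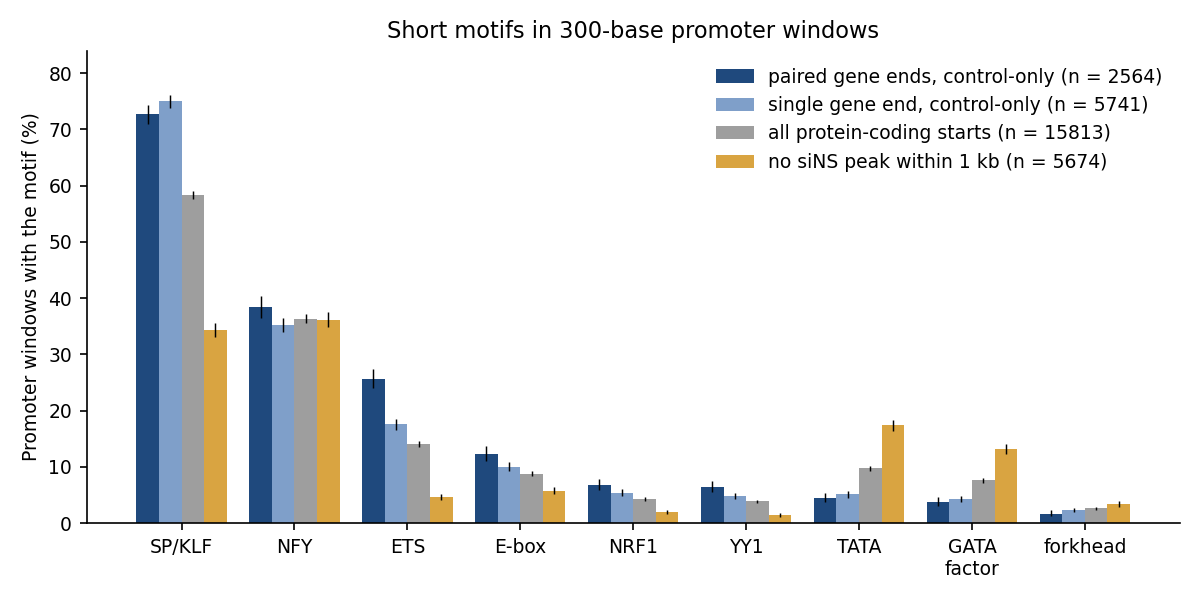
Share of 300-base RefSeq promoter windows (y axis, percent, with exact 95% binomial intervals) that hold each short motif on either strand (x axis), for starts at paired-end regions, at single-end control-only regions, for all protein-coding starts and for starts with no siNS peak within 1 kb. The ETS bars stand at 25.7, 17.6, 14.1 and 4.67%, and the TATA bars at 4.52, 5.10, 9.75 and 17.4%.

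Among the 972 divergent regions, the siNS scores differed with the ETS letters and the GC box of the windows, but not with every motif counted. The ETS letters were in at least 1 window of 330 regions (34.0%), whose median score percentiles were 69.3 in siNS 1 and 50.6 in siNS 2, against 76.5 and 62.7 for the regions without them. The GC box was in at least 1 window of 835 regions (85.9%), with medians of 75.4 and 61.2, against 66.4 and 47.3 without it. The direction was the same in both siNS libraries for each of these motifs. CCAAT, in 496 regions, went with 74.7 and 59.4, against 74.0 and 59.6 without it. The forkhead letters TGTTTAC, in 29 regions, went opposite ways in the libraries, with 73.8 and 67.7, against 74.4 and 59.4 without them. Of the other motifs counted so, NRF1, YY1 and TATA went with lower medians in both libraries, and the E-box with higher ones. These values describe regions of 2 libraries and were not tested.

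The siFOXA1 peaks were far from most paired-end regions. The nearest peak was a median of 84973.5 bp away in siFOXA1 1 and 81314.5 bp away in siFOXA1 2. It was within 1 kb of 0.719% and 0.975% of the regions, and within 10 kb of 8.68% and 8.78%. For control-only regions inside genes the share within 10 kb was 16.6% and 17.8%, and for single gene ends it was 9.58% and 10.9%. Other transcripts were also compared. An annotated lncRNA end lay within 1 kb of 194 paired-end regions (9.96%, 8.66 to 11.4%), against 24.9% (23.9 to 25.8%) of single-end regions, 8.63% of regions inside genes and 15.9% between genes. A miRNA gene's end lay within 1 kb of 41 paired-end regions (2.10%, 1.51 to 2.84%) and of 1.26% of single-end regions (1.02 to 1.52%).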

How the data were processed

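The authors deposited 1 peak list per TLE3 ChIP library, with a position, a name and a score per peak. MACS2 is named, beside SAMtools, Trim Galore and BWA 0.7.5a, on build hg38, per the submitters' processing notes. How they were set, and what the score measures, is not given in the sources used here. Peaks were listed per library, not on pooled libraries. The name of the siFOXA1 2 list holds a different number from its title, whose number was kept. The 2 input libraries, whose labels name MDA-MB-454, were not analysed here. Mitochondrial peaks (4, 9, 4 and 3 in siFOXA1 1, siFOXA1 2, siNS 1 and siNS 2) were left out.

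Peaks sharing at least 1 bp were merged, which gave 72272 regions here and in bedtools 2.31.1. Gene ends came from RefSeq on GRCh38.p14 (19974 protein-coding genes on chromosomes 1 to 22 and X), and strands and promoter windows from its promoter table, which matched 15813 of them. Divergent means that starts on opposite strands both lay within 1 kb of the region. Starts for arrangement, spacing and coverage were ends of gene spans. All 1641 symbols of the 15 gene lists were matched. Positions are 1-based. Computation used Python 3.11.15, numpy 2.4.6, pandas 2.3.3 and scipy 1.17.1. Arrangement and class were recovered for 1200 of 1200 simulated regions.

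Differences in library shares were tested by exact permutation (two-sided). Its p is the share of relabelings of these libraries that gave a difference at least as large as the observed one. Intervals are exact 95% binomial intervals. The alternatives were distances of 500 bp and 2 kb, lists of equal length, peaks at or above the median score, a 50% overlap, siFOXA1 peaks widened by 500 bp, gene starts only, leaving out each library, a replicate block, and others named with the limits.

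Genes named are taken from the 32 pairs listed (some of which are not reported here), the 10 regions of highest mean score percentile, the 3 with most genes, the 3 widest, the 2 on each side of the 1 kb limit and up to 3 genes per gene list by score percentile. Beyond that rule, all 5 luminal and all 5 TLE-partner genes are named, which was decided after their values were seen. The regions, lists, pairs and motifs were chosen with earlier results of these data known.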

Additional observations from a re-analysis of the deposited data

How the results depend on the processing

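The number of paired-end regions depended most on how many peaks were used. It was 1267 when peaks below a list's median score were dropped, 524 with lists of equal length and 1979 to 2516 when 1 library was left out. Their share of siNS regions was 96.1% and 84.1% under those first 2 alternatives (beside 67.7% of all siNS regions with equal lists), and 95.6 to 96.3% without 1 library. The divergent share was 72.0% at 500 bp, 58.5% at 2 kb, 64.2% with lists of equal length and 63.1 to 67.7% without 1 library. It was 58.9% when every start in the promoter table was used, an alternative chosen after seeing the data, as was the count of genes with non-overlapping spans (1454 regions, 94.4% without a siFOXA1 peak). The cause of these shifts was not tested; fewer peaks or libraries enter by construction. The difference in library shares stayed negative in each alternative run, at -3.88 (500 bp), -7.08 (2 kb), -6.98 (median score), -6.97 (equal length) and -5.38 to -4.77 points without 1 library. With the replicate block it was -5.07, with an exact sign-flip permutation p of 0.5, the smallest that 2 pairs allow; the libraries share only a number, and 2 pairs cannot show whether it pairs them. Of 8 alternatives for peak width and percentile 5 stayed within the spread and 3 moved, all upward with peaks above the median score (siNS 1 width 1183 bp, siNS 2 width 968 bp and percentile 73.0). Of 48 for the gene lists 44 stayed and 4 moved, among them the histone list (27.1% at 500 bp). Of 22 for the promoters 20 stayed and 2 moved, the GC box (75.5%) and TATA (3.24%) with starts inside the region only. Without reads or depth, regions below the authors' threshold cannot be told from unbound ones.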
